A study of Mus musculus with 16 samples.

Results

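The p53 and DNA damage response was followed in mouse liver through 10 genes, Trp53, Mdm2, Cdkn1a, Ccng1, Btg2, Sesn2, Bax, Bbc3, Trp53inp1 and Phlda3. The genes were chosen by name, as p53 itself and widely known transcriptional targets of it, with earlier results of these data known. Every array probe whose RefSeq accession matched one of them was used. That gave 16 probes of the 41174 on the array, for 10 of the 19096 genes named on it, and each of them stood well above background in all 16 mice. Ccng1, Mdm2, Trp53 and Trp53inp1 had 2 probes each, Btg2 had 3, and the others had 1.

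p53 is a transcription factor that is kept low by the ubiquitin ligase MDM2 and accumulates when DNA is damaged. It then switches on genes that stop the cell cycle, genes that limit oxidative damage and genes that start apoptosis, and it also switches on Mdm2, which closes a negative feedback loop. In liver the pathway answers to DNA-damaging carcinogens such as DEN, which hepatocytes turn into its reactive form, and its target Cdkn1a restrains hepatocyte division.

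The livers came from male mice, 4 per group, with 1 array per mouse. All 16 mice had received the alkylating carcinogen N-diethylnitrosamine (DEN) at 90 mg/kg and 5 weeks of age, and all livers were taken at 57 weeks, so every group measured here carried an old DEN exposure and none was free of it. WT mice were wild type (C57BL/6J) and KO mice carried a null allele of Gadd45b in the whole body, from a stock whose name also holds a 129S6 strain, so that a difference of strain and the loss of Gadd45b cannot be told apart in any KO against WT value. WT DEN and KO DEN mice received no further agent, and WT DEN + PB and KO DEN + PB mice drank phenobarbital (PB), a promoter of liver tumours, at 0.5 g/l from 7 weeks. The tissue was taken outside tumours, per the study's methods. The comparisons asked what PB changed in each genotype, and how KO mice, which lack a gene of the growth arrest and DNA damage family, differed from WT mice under each treatment.

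Values are log2 processed signals minus the 75th percentile of the same array, so that 0 is that percentile, and the brightest probe stands for a gene with several. A gene is called where limma gave an adjusted p under 0.05 over all 24454 probes tested and the change was 1.5-fold or more. As for the deleted gene itself, the Gadd45b probe stood clear of background on every WT array and on 0 of 8 KO arrays, and it was at least 23.6-fold lower in KO DEN than in WT DEN and at least 44.8-fold lower in KO DEN + PB than in WT DEN + PB. Hepatocyte markers were high on every array, with a summed signal of 1123 to 1767 times the 75th percentile. The summed signal of 9 leukocyte markers was 22.5 to 44.8 in WT DEN, 26.6 to 31.0 in WT DEN + PB, 14.9 to 18.5 in KO DEN and 11.1 to 15.6 in KO DEN + PB, and that of 6 endothelial markers was 35.9 to 47.7 over the WT arrays and 18.7 to 32.0 over the KO arrays. Lower signal of such markers in bulk tissue can come from fewer cells of a type or from less RNA per cell, which cannot be told apart here. Among 8 proliferation markers, KO DEN mouse 4 stood apart with a summed signal of 7.79, against 1.06 to 3.12 on the other arrays.

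The promoters of the genes are shown because p53 acts on its targets by binding a known motif, and because they differ in it. RefSeq windows (assembly GRCm38.p6) were found for 9 of the 10 genes, all but Trp53inp1, and the 250 bases before each transcription start were searched for the consensus p53 half-site, 10 bases long, made of 3 purines, a C, a pair of A or T bases, a G and 3 pyrimidines. This consensus is its own reverse complement, so a single search covers both strands. An exact half-site stood in 7.13% of all 32851 promoter windows, and in 5 of the 12 windows of these genes, which belong to 5 of the 9. In the windows below, the capitals mark the half-site, each sequence runs 5′ to 3′ on the strand of the gene, and the coordinates are those of the printed bases.
Bax (chr7:45467080-45467109, minus strand): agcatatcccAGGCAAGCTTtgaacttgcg
Mdm2 (chr10:117710925-117710954, minus strand): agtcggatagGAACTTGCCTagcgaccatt
Ccng1 (chr11:40755452-40755481, minus strand): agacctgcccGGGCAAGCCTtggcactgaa
Trp53 (chr11:69580274-69580303, plus strand): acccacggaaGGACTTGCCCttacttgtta
Gadd45a, a further p53 target described later (chr6:67037428-67037457, minus strand): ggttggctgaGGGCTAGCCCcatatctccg

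Cdkn1a had 2 exact half-sites in the window of 1 of its starts, 12 bases apart, and none in that of its other start. At least 2 half-sites, at any spacing, stood in 0.259% of all windows. The 250 bases before the former start (chr17:29090729-29090978, plus strand), with both half-sites in capitals, read as follows.
Cdkn1a: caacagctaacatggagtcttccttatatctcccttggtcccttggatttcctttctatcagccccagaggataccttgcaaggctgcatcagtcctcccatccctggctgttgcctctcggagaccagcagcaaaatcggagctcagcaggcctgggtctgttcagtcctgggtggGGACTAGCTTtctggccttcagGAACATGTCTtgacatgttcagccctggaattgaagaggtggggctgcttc

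A full site, here any 2 half-sites at most 13 bases apart with at most 1 mismatch in all, stood in 0.898% of windows and in those of Cdkn1a, Ccng1 and Bax. In Ccng1 the half-sites touch, from base -195 to base -176 relative to the start, and the mismatch is the lower-case base of the site.
Ccng1 (chr11:40755462-40755481, minus strand): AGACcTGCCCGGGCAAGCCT
The windows of Btg2, Sesn2, Phlda3 and Bbc3 held no exact half-site, which says only that these letters are absent from the 250 bases searched. A match is a description of the sequence and was not tested as a binding site.

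The plot of the 10 genes by array shows their levels in all mice.

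**Figure D1:**
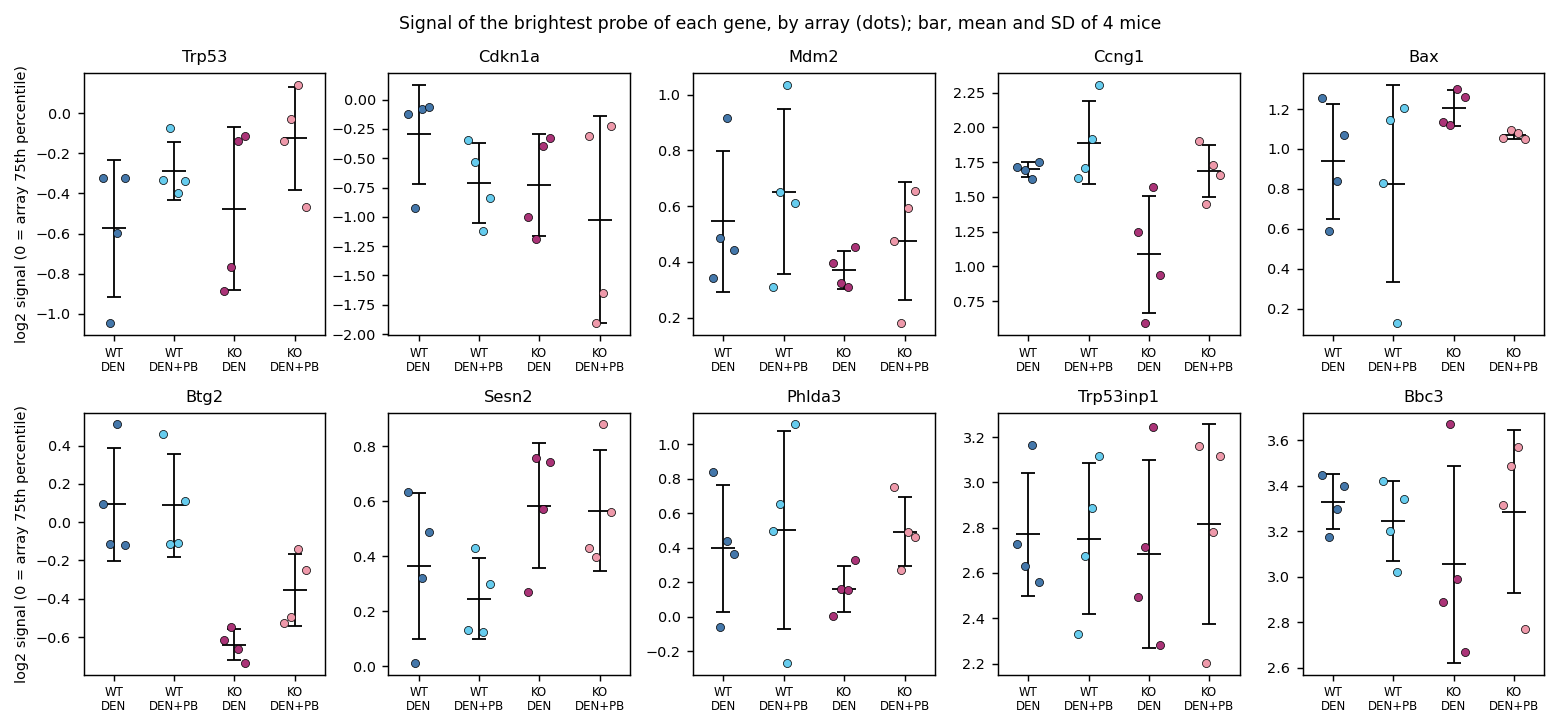
Log2 signal of the brightest probe of each of the 10 genes on each of the 16 arrays (dots; y axis, log2 processed signal with the array's 75th percentile at 0; y axes differ between panels), by group, with the mean and SD of 4 mice. The 4 KO DEN mice lay below all WT DEN mice for Btg2 and Ccng1, and for the other genes those groups overlapped.

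No PB effect on the p53 set passed the test in WT liver. Of the 10 genes, 0 were called for the PB effect in WT, against 0.737% of all genes tested, 0 had an unadjusted limma p under 0.05, against 8.31% of all genes, and 0 had groups that did not overlap, against 5.16%. Their log2 changes ran from -0.41 (Cdkn1a) to 0.29 (Trp53), with a median of -0.01, beside a median of -0.02 over all genes tested. The 95% intervals of 9 of the 10 lay within 1 log2 unit of 0, and that of Cdkn1a reached down to -1.17, so this interval includes a fall of over 2-fold.

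In KO liver, too, 0 of the 10 genes were called for the PB effect, against 2.13% of all genes. Log2 changes ran from -0.30 (Cdkn1a) to 0.60 (Ccng1), with a median of 0.18, beside 0.01 over all genes. Ccng1 alone had an unadjusted p under 0.05, against 13.3% of all genes. Bax and Btg2 had groups that did not overlap, as did 8.6% of all genes, Bax lower by 0.13 and Btg2 higher by 0.29 on the log2 scale, and neither passed the adjusted test. The PB effect did not differ between the genotypes for any of the 10 genes at the threshold: 0 were called, as were 0% of all genes, and 0 had an unadjusted p under 0.05, against 6.62% of all genes. Over both genotypes together, 0 of 10 were called for PB, against 2.13%, and Trp53 and Ccng1 had an unadjusted p under 0.05, against 14.1%.

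Between KO and WT, 1 of the 10 genes was called, by 1 of its 3 probes, and over both treatments that share was near the share of all genes called. Under DEN alone, Btg2 was called lower in KO, 1 of 10 against 2.76% of all genes, and Ccng1 came next with an unadjusted p of 0.00679 and an adjusted p of 0.0947 (limma). Of all genes, 1.74% were called lower there and 1.02% higher. The groups did not overlap for 2 genes, Btg2 and Ccng1, as for 11% of all genes, and the median log2 change was -0.21, beside -0.04 over all genes. Under DEN + PB, 0 of 10 were called, against 7.61% of all genes, with Btg2 alone having an unadjusted p under 0.05 (23.4% of all genes) or groups that did not overlap (17.3% of all genes). The median log2 change there was 0.02, beside 0.03. Over both treatments 1 of 10 was called, Btg2, against 8.8% of all genes, and Ccng1, Btg2 and Sesn2 had an unadjusted p under 0.05, against 30.5%.

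**Figure D2:**
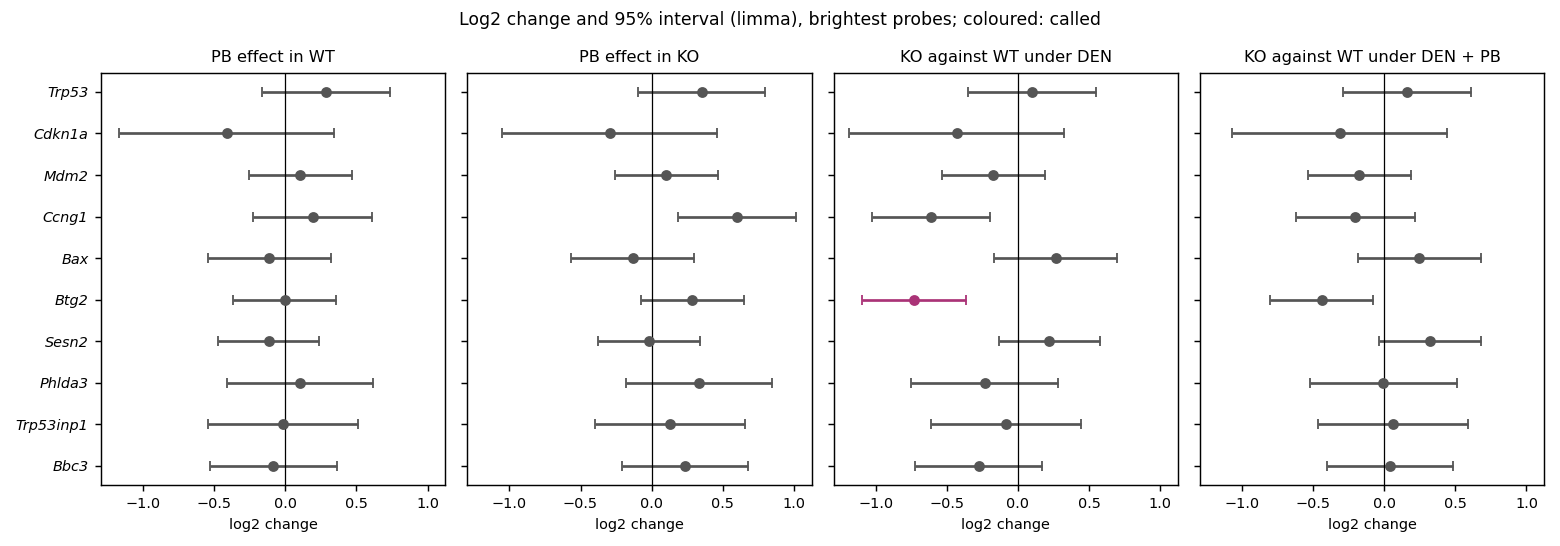
Log2 change (x axis) of each of the 10 genes in 4 comparisons, as points with 95% intervals from limma over 16 arrays; the coloured point passed an adjusted p under 0.05 and 1.5-fold. Btg2 in KO DEN against WT DEN (-0.73) is the coloured point, and the interval of Ccng1 lies below 0 in that panel and above 0 in the PB effect in KO.

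Trp53, which encodes p53, is regulated mostly at the level of its protein. Its brightest probe read -0.32, -1.05, -0.60 and -0.32 in WT DEN and -0.33, -0.07, -0.40 and -0.34 in WT DEN + PB, and -0.89, -0.76, -0.14 and -0.11 in KO DEN and -0.14, -0.03, 0.14 and -0.47 in KO DEN + PB. The 4 groups overlapped, and WT DEN mouse 2 and KO DEN mice 1 and 2 were the lowest. PB minus DEN over both genotypes was 0.32 ± 0.15 (log2, SE, adjusted p = 0.378 by limma), and the other probe, which has 10 spots on each array, gave -0.06 ± 0.15, so the 2 probes of Trp53 did not share a direction. KO minus WT over both treatments was 0.13 ± 0.15 by the brightest probe and -0.05 ± 0.15 by the other.

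Mdm2, the ligase that removes p53 and is itself a target of it, varied little. Its brightest probe ran from 0.34 to 0.92 in WT DEN, 0.31 to 1.03 in WT DEN + PB, 0.31 to 0.46 in KO DEN and 0.18 to 0.66 in KO DEN + PB. The ranges of all 4 groups overlapped, and mouse 3 was the highest in both WT groups. The PB effect was 0.11 ± 0.17 in WT and 0.10 ± 0.17 in KO, and KO minus WT was -0.17 ± 0.17 under DEN and -0.18 ± 0.17 under DEN + PB (log2, SE, adjusted p between 0.567 and 0.986 by limma). A dim probe of Mdm2 averaged -3.74 in WT DEN and -3.06 in KO DEN, a difference of 0.67 ± 0.30 (adjusted p = 0.218), opposite in sign to the brightest probe.

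Cdkn1a encodes p21, the cyclin-dependent kinase inhibitor through which p53 halts the cycle. It read -0.12, -0.92, -0.08 and -0.06 in WT DEN, -0.34, -0.53, -1.12 and -0.84 in WT DEN + PB, -1.004, -1.19, -0.39 and -0.32 in KO DEN, and -0.31, -1.91, -1.65 and -0.23 in KO DEN + PB. WT DEN held 3 mice close together at the top and 1 far below them, and KO DEN + PB split into 2 mice near -0.3 and 2 below -1.6, so every pair of groups overlapped. The SD within groups was 0.56, at the 92.1 percentile of all genes tested and 25.5 times the standard error that the 10 spots of the probe gave within an array. Both PB effects and both genotype differences were negative, from -0.30 to -0.43 with an SE of 0.36, and none had an adjusted p under 0.532 (limma).

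Ccng1 encodes cyclin G1, which binds a phosphatase and takes part in the feedback on p53. It read 1.72, 1.69, 1.63 and 1.75 in WT DEN, 1.63, 1.71, 1.91 and 2.30 in WT DEN + PB, 1.25, 0.59, 1.57 and 0.94 in KO DEN, and 1.90, 1.45, 1.73 and 1.66 in KO DEN + PB. The KO DEN mice were all below the WT DEN mice, 3 of them below every other array, while the other 3 groups overlapped. KO minus WT under DEN was -0.61 ± 0.20 (log2, SE, 0.655-fold, adjusted p = 0.0947 by limma, exact permutation p = 0.0286, two-sided, the smallest that 4 against 4 can give).
The other probe of Ccng1 gave nearly the same, -0.58 ± 0.22 (adjusted p = 0.146, exact permutation p = 0.0571). Under DEN + PB the difference was -0.20 ± 0.20 and -0.30 ± 0.22 by the 2 probes, and over both treatments -0.41 ± 0.14 (adjusted p = 0.0538) and -0.44 ± 0.15 (adjusted p = 0.0592). PB raised no call in either genotype, at 0.19 ± 0.20 in WT and 0.60 ± 0.20 in KO (adjusted p = 0.943 and 0.164). Leaving out KO DEN mouse 3, the highest of its group, brought KO minus WT under DEN to -0.77 with an adjusted p of 0.0419, and no other fit over the alternatives called it. Its sign was negative in all of them.

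Btg2 encodes an antiproliferative protein that recruits the machinery for shortening mRNA tails. Its brightest probe read 0.10, -0.12, 0.51 and -0.12 in WT DEN, 0.46, -0.12, -0.11 and 0.11 in WT DEN + PB, -0.61, -0.55, -0.66 and -0.73 in KO DEN, and -0.53, -0.50, -0.14 and -0.25 in KO DEN + PB. All 8 KO mice lay below all 8 WT mice, by the narrowest of margins for KO DEN + PB mouse 3. KO minus WT was -0.73 ± 0.17 under DEN (log2, SE, 0.603-fold, adjusted p = 0.0311 by limma, exact permutation p = 0.0286) and -0.44 ± 0.17 under DEN + PB (adjusted p = 0.134).
Over both treatments it was -0.59 ± 0.12 (0.666-fold, adjusted p = 0.00409, exact permutation p within treatments = 0.000408, the smallest that 4900 assignments allow). The difference of these effects between treatments was not past the threshold (-0.29 ± 0.24 for the difference under DEN minus that under DEN + PB, adjusted p = 0.967 by limma). On slides that held both genotypes, with 1 array each, KO minus WT was -0.64 and -1.12 under DEN and ran from -0.96 to -0.04 under DEN + PB. With slide as a block over all arrays, the difference under DEN was -0.81 and no longer passed (adjusted p = 0.0633), and with normexp, a model-based background correction of the raw spot signals, it was -0.57 (adjusted p = 0.325).

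The call for Btg2 was that of 1 probe. The other probes of Btg2 are dimmer, and KO minus WT under DEN was 0.08 ± 0.24 and -0.11 ± 0.24 by them, and over both treatments 0.17 ± 0.17 and -0.06 ± 0.17. The mean of the 3 probes gave -0.25 under DEN (adjusted p = 0.450) and -0.16 over both treatments (adjusted p = 0.404). The call under DEN was also lost without WT DEN mouse 1 or 3 or any KO DEN mouse (adjusted p between 0.0547 and 0.0956), and the call over both treatments fell just under 1.5-fold without WT DEN mouse 3, WT DEN + PB mouse 1 or 4, KO DEN mouse 3 or 4 or KO DEN + PB mouse 1 or 2 (log2 change between -0.58 and -0.52). Of 9 leukocyte markers, 2 were called lower in KO under DEN and 5 over both treatments, and of 6 endothelial markers 2 and 3, against 1.74% and 6.08% of all genes. Their part in the result was not tested.

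**Figure D3:**
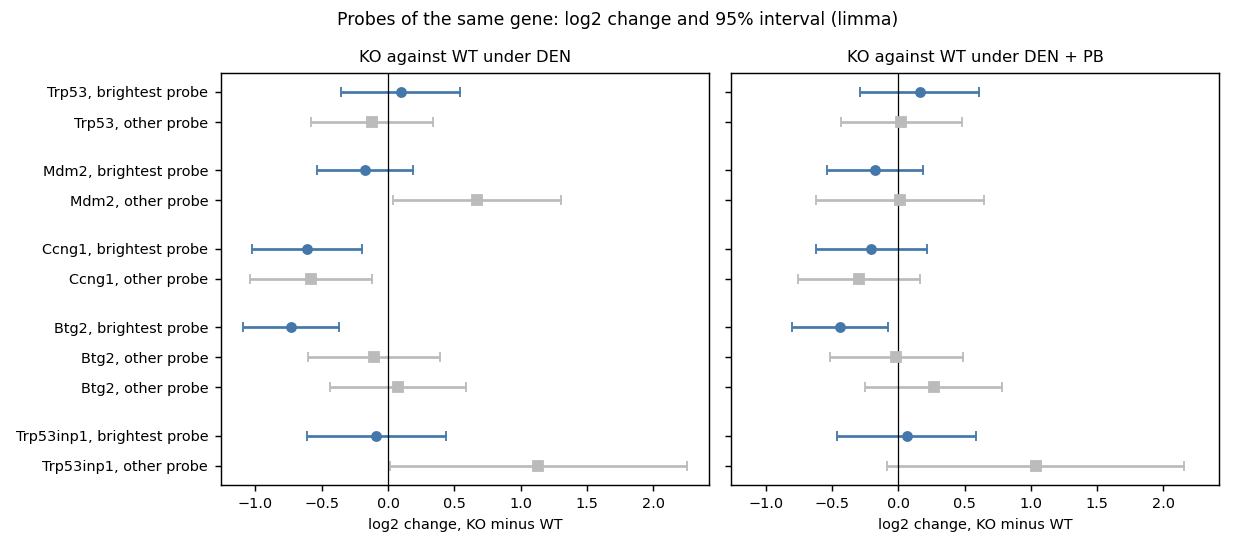
Log2 change of KO against WT (x axis, with 95% intervals from limma over 16 arrays) for each probe of the 5 genes with more than 1 probe, under DEN and under DEN + PB; circles are the brightest probe of a gene and squares its other probes. The 2 probes of Ccng1 lie side by side (-0.61 and -0.58 under DEN), and those of Btg2, Mdm2 and Trp53inp1 do not.

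Sesn2 encodes sestrin 2, which damps oxidative stress and the growth kinase mTORC1. It ran from 0.01 to 0.63 in WT DEN, 0.12 to 0.43 in WT DEN + PB, 0.27 to 0.76 in KO DEN and 0.40 to 0.88 in KO DEN + PB. The KO means were the higher ones under both treatments, and the groups overlapped. KO minus WT over both treatments was 0.27 ± 0.12 (log2, SE, adjusted p = 0.125 by limma, exact permutation p = 0.0245), opposite in sign to Btg2 and Ccng1, and PB minus DEN was -0.12 ± 0.17 in WT and -0.02 ± 0.17 in KO.

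Bax and Bbc3 encode members of the BCL2 family that start apoptosis at the mitochondrion, BAX by opening its outer membrane and PUMA, the product of Bbc3, by freeing BAX. Bax read 1.25, 0.59, 0.84 and 1.07 in WT DEN, 0.83, 1.14, 0.13 and 1.20 in WT DEN + PB, 1.14, 1.12, 1.30 and 1.26 in KO DEN, and 1.05, 1.10, 1.08 and 1.05 in KO DEN + PB. The KO mice were close together, with an SD of 0.09 and 0.02, and the WT mice were spread, with an SD of 0.29 and 0.49 and the lowest value in WT DEN + PB mouse 3. KO minus WT over both treatments was 0.26 ± 0.14 (log2, SE, adjusted p = 0.235 by limma). Although Bax was lower in all KO DEN + PB mice than in all KO DEN mice, the difference was -0.13 ± 0.20 in the fit, which takes its spread from all 4 groups (adjusted p = 0.904, exact permutation p = 0.0286).
Bbc3 ran from 3.18 to 3.45 in WT DEN, 3.02 to 3.42 in WT DEN + PB, 2.67 to 3.67 in KO DEN and 2.77 to 3.57 in KO DEN + PB. Here the KO groups were the wider ones, with all WT values inside their ranges, and no comparison of Bbc3 had an adjusted p under 0.490 (limma).

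Trp53inp1 and Phlda3 act around cell death, the first as a cofactor of p53 that also promotes autophagy and the other as an inhibitor of the survival kinase AKT. The brightest probe of Trp53inp1 ran from 2.56 to 3.17 in WT DEN, 2.33 to 3.12 in WT DEN + PB, 2.28 to 3.25 in KO DEN and 2.20 to 3.16 in KO DEN + PB, and KO minus WT over both treatments was -0.01 ± 0.18. Its other probe gave 1.09 ± 0.37 (adjusted p = 0.0555 by limma). That probe had an SD within groups of 0.85, at the 98.5 percentile, and read -0.67 in WT DEN mouse 3 and -0.86 in WT DEN + PB mouse 3 where the remaining arrays ran from 0.66 to 2.28.
Phlda3 read 0.84, -0.06, 0.44 and 0.36 in WT DEN, 0.50, 0.66, -0.27 and 1.12 in WT DEN + PB, 0.00, 0.16, 0.15 and 0.33 in KO DEN, and 0.75, 0.27, 0.50 and 0.46 in KO DEN + PB. All groups overlapped, with KO DEN the narrowest and lowest. PB minus DEN in KO was 0.33 ± 0.24 (adjusted p = 0.685, exact permutation p = 0.0571) and KO minus WT over both treatments was -0.12 ± 0.17.

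Correlations among the 10 genes over the 16 mice were taken after the mean of each group was subtracted from its mice. They ran from r = -0.495 (Mdm2 and Bax) to 0.89. Of 45 pairs, 0 had a correlation past the threshold after adjustment over the pairs, which does not show that the genes varied independently. Pairs with an unadjusted permutation p under 0.05 included Trp53 and Bax (r = 0.493, p = 0.0053) and Bax and Sesn2 (r = 0.533, p = 0.0132). The same held for Trp53 and Sesn2 (r = 0.654, p = 0.0257), Sesn2 and Phlda3 (r = 0.533, p = 0.0268) and Cdkn1a and Phlda3 (r = 0.449, p = 0.0374). It also held for Ccng1 and Trp53inp1 (r = 0.597, p = 0.0394) and Mdm2 and Trp53inp1 (r = 0.522, p = 0.0453). Mdm2 and Bbc3 went the opposite way (r = -0.449, p = 0.0297). The closest pair was Bax and Phlda3, with Pearson's r = 0.89 (permutation p = 0.0023, adjusted p = 0.104) and Spearman's rho = 0.556 (permutation p = 0.0727, adjusted p = 0.545), and r = 0.736 without the 2 mice farthest from the median. Among all genes on the array, the nearest patterns by Pearson's r over 16 arrays were Emc10 (0.825), Bloc1s4 (0.821) and Rab21 (0.795) for Cdkn1a, Slc30a5 (0.925), Edem3 (0.924) and Washc4 (0.904) for Mdm2, and Ghitm (0.932), Ugp2 (0.923) and Aldh6a1 (0.910) for Ccng1. For these neighbours the group means were not subtracted, so their r values also hold differences between groups and cannot be set beside those of the pairs. All of these are descriptions over arrays that share groups, slides and scaling.

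Among the regulators of p53, 16 of 18 listed genes could be tested, and 0 were called for PB in either genotype, against 0.737% of all genes in WT and 2.13% in KO. For KO against WT, 0 were called under DEN, against 2.76%, and over both treatments 1 was called higher and 1 lower, against 2.72% and 6.08%. An unadjusted limma p under 0.05 was held by 6 under DEN, 4 under DEN + PB and 8 over both, against 18.2%, 23.4% and 30.5%. Under DEN + PB, where 1.76% of all genes were called higher and 5.85% lower, 1 was higher in KO, Sirt1, a deacetylase of p53, and 1 was lower, Chek2, a kinase that stabilises p53 after DNA breaks. Chek2 differed by -1.32 ± 0.26 (log2, SE, adjusted p = 0.0064 by limma), and its probe cleared background in 4 of 4 WT DEN + PB mice but 1 of 4 KO DEN + PB mice. With another background correction (normexp without outlying backgrounds) its difference was -0.01. Normexp adds an offset of 50 to every signal, which shrinks log2 changes of dim probes such as this one, with a mean of -4.38. Sirt1 differed by 1.19 ± 0.33 (adjusted p = 0.0397) by its brightest probe and by -0.05 ± 0.14 by its other, and lost the call without WT DEN mouse 1 or 2, WT DEN + PB mouse 3 or 4, or KO DEN + PB mouse 2 or 4.
Mdm4 and Ppm1d, whose products hold p53 in check beside MDM2, were below the fold used for a call. Mdm4, a relative of MDM2, was 0.49 ± 0.13 higher in KO over both treatments (adjusted p = 0.0197, 1.41-fold), and Ppm1d, a phosphatase that ends the damage signal, was at -0.44 ± 0.13 (0.737-fold, adjusted p = 0.0292). Their other tested probes were weaker or opposite, from -0.05 to 0.37 for the 3 of Mdm4 and 0.19 for that of Ppm1d. Cdkn2a, whose ARF product blocks MDM2, cleared background in 2 WT DEN mice, 1 WT DEN + PB mouse and 0 KO mice, so it was not tested.

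Other targets of p53 formed a list of 30 genes, of which 27 could be tested. For PB, 2 were called higher in WT (Gdf15 and Abcb1a), against 0.654% of all genes, and 2 in KO (Gadd45a and Gdf15), against 1.26%, and 0 were called lower in either, against 0.0827% and 0.872%. Over both genotypes 4 were called higher (Gdf15, Abcb1a, Gadd45a and Ephx1), against 1.53%, and 0 lower, against 0.609%. For KO against WT, 0 were called higher and 1 lower under DEN (Gadd45a), against 1.02% and 1.74% of all genes, and 1 higher (Gls2) and 2 lower (Gadd45a and Apaf1) under DEN + PB, where 1.76% and 5.85% of all genes were called higher and lower. Over both treatments 0 were called higher and 2 lower (Gadd45a and Apaf1), against 2.72% and 6.08%. The median log2 change of the list was 0.10 and 0.08 for PB and -0.06 and -0.08 for genotype, beside -0.02, 0.01, -0.04 and 0.03 over all genes.

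Gadd45a, the sister gene of the deleted Gadd45b and a classic p53 target, read 1.84, 2.31, 1.74 and 1.53 in WT DEN and 0.00, 0.57, 0.09 and -0.55 in KO DEN. It read 1.88, 2.66, 3.46 and 2.73 in WT DEN + PB and 1.41, 1.66, 2.15 and 0.72 in KO DEN + PB. All KO DEN mice were far below all WT DEN mice, and the groups given PB overlapped through WT mouse 1 and KO mouse 3. KO minus WT was -1.83 ± 0.34 under DEN (log2, SE, 0.282-fold, adjusted p = 0.00908 by limma), -1.20 ± 0.34 under DEN + PB (adjusted p = 0.0403) and -1.51 ± 0.24 over both (adjusted p = 0.000605).
PB minus DEN of Gadd45a was 1.46 ± 0.34 in KO (adjusted p = 0.0348) and 0.83 ± 0.34 in WT (adjusted p = 0.545), and these effects were not shown to differ (adjusted p = 0.958). The call for PB in KO was lost without WT DEN + PB mouse 2, KO DEN mouse 1, 3 or 4, or KO DEN + PB mouse 1, 2 or 3 (adjusted p up to 0.112). The genotype call under DEN + PB was lost without WT DEN mouse 1, WT DEN + PB mouse 2, 3 or 4, KO DEN mouse 1 or 3, or KO DEN + PB mouse 1, 2 or 4 (adjusted p up to 0.127), while the calls under DEN and over both treatments stood with any array left out. Normexp ended the call under DEN (-1.43, adjusted p = 0.170). The leukocyte and endothelial markers given above were lower in KO too, and their part in the result was not tested.

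Gdf15, a secreted stress hormone, read 2.29, 1.40, 1.27 and 1.30 in WT DEN and 2.87, 3.25, 3.03 and 2.77 in WT DEN + PB. In KO it read 1.06, 1.26, 0.96 and 1.47 under DEN and 2.82, 2.50, 1.98 and 2.08 under DEN + PB. Every mouse given PB lay above every mouse of its genotype given DEN alone. PB minus DEN was 1.42 ± 0.24 in WT (2.67-fold, adjusted p = 0.0052 by limma), 1.16 ± 0.24 in KO (2.23-fold, adjusted p = 0.0168) and 1.29 ± 0.17 over both genotypes (adjusted p = 0.000214), and the effects were not shown to differ between genotypes (adjusted p = 0.986). Normexp ended both single-genotype calls of Gdf15 (adjusted p = 0.253 and 0.227). The KO call was lost without KO DEN mouse 1 or KO DEN + PB mouse 2 (adjusted p up to 0.0577). Beside the rise in WT, 2 of 6 cholangiocyte markers were called higher with PB in WT and 0 in KO, against 0.654% and 1.26% of all genes, with summed signals of 12.03 to 32.01 in WT DEN and 18.01 to 35.91 in WT DEN + PB, and their part in the result was not tested.

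Abcb1a, a drug efflux pump, rose by 1.38 ± 0.28 with PB in WT (log2, SE, adjusted p = 0.0255 by limma), from a range of -4.16 to -3.94 to one of -3.24 to -2.14, and by 1.12 ± 0.20 over both genotypes (adjusted p = 0.00396). In KO its change was 0.85 ± 0.28 (adjusted p = 0.161). The WT call was lost without any WT DEN mouse or WT DEN + PB mouse 1, 3 or 4 (adjusted p up to 0.100), and with another background correction the WT change was as low as 0.30. The probe averaged -3.28 over all arrays, dim enough for the normexp offset to shrink its changes.
Ephx1, an epoxide hydrolase of drug metabolism, was called over both genotypes at 0.70 ± 0.17 (adjusted p = 0.0384), and its other probe gave 0.81 ± 0.19. That call was lost in 12 of 16 fits without 1 array, all but those without WT DEN mouse 1, KO DEN mouse 1 or 4 or KO DEN + PB mouse 3.
Apaf1, the scaffold on which caspase 9 is activated, ran from -1.68 to -1.12 in WT DEN + PB and from -2.48 to -2.33 in KO DEN + PB, a difference of -0.89 ± 0.16 (adjusted p = 0.00362). Gls2, a liver glutaminase, went the other way, from 5.16 to 5.57 in WT DEN + PB and 5.72 to 6.28 in KO DEN + PB, a difference of 0.73 ± 0.16 (adjusted p = 0.00911). Normexp background correction ended both calls (Apaf1 at -0.55, adjusted p = 0.606, and Gls2 at 0.97, adjusted p = 0.296, by limma). In KO DEN + PB against WT DEN + PB, 6 of 9 leukocyte, 2 of 6 endothelial, 4 of 6 cholangiocyte and 3 of 7 stellate and fibroblast markers were called lower, against 5.85% of all genes, and their part in the result was not tested.

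**Figure D4:**
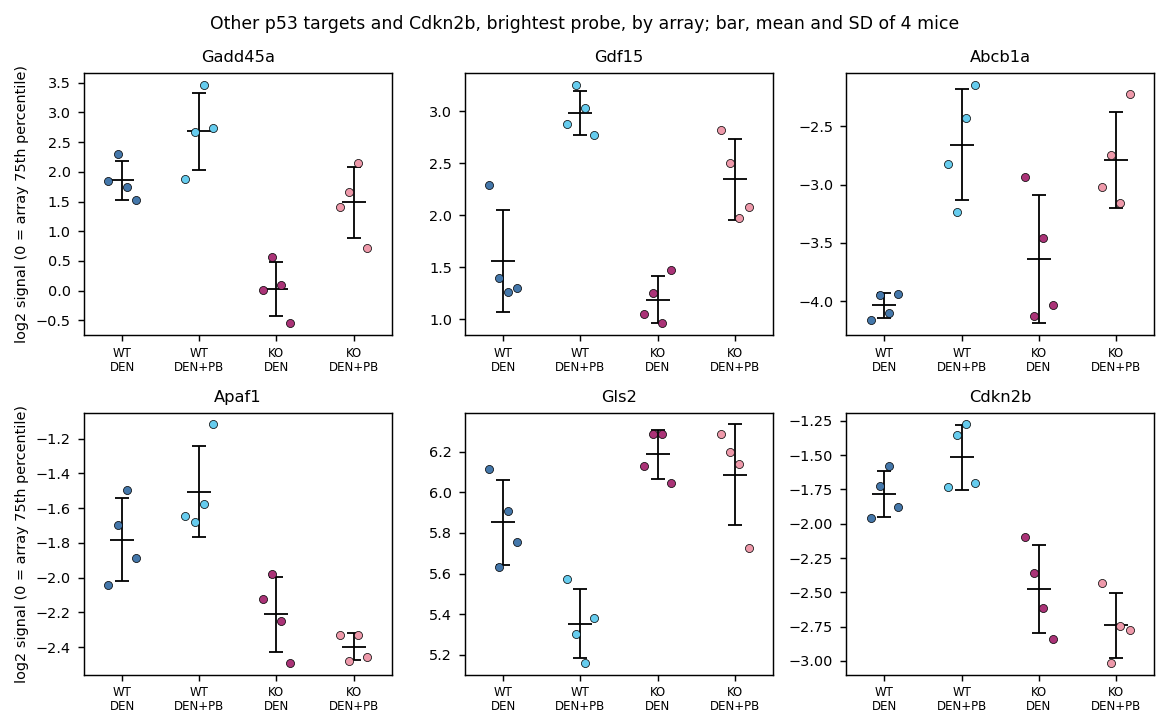
Log2 signal (y axis, 0 is the array's 75th percentile; y axes differ between panels) of 5 further p53 targets and of Cdkn2b on each array, with the mean and SD of 4 mice per group. Gadd45a was lowest in KO DEN, Gdf15 was higher with PB in both genotypes, and Apaf1 and Cdkn2b were lower in KO.

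The other fixed genes were not called by their brightest probe. KO minus WT under DEN was -0.72 ± 0.27 for Eda2r, a death receptor (adjusted p = 0.143 by limma), and -0.21 ± 0.17 for Zmat3, an RNA-binding target (adjusted p = 0.507). For Sesn1, a sestrin like Sesn2, the same difference was -0.48 ± 0.20 (adjusted p = 0.179) by the brightest probe, and its other probes gave -0.74 ± 0.19 (adjusted p = 0.0466) and -0.78 ± 0.26 (adjusted p = 0.112). Over both treatments those other probes of Sesn1 passed the threshold, at -0.59 ± 0.14 (adjusted p = 0.00806) and -0.70 ± 0.19 (adjusted p = 0.0178). Chek1, the kinase of the replication checkpoint, was 0.64 ± 0.19 higher with PB over both genotypes (adjusted p = 0.114).

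In the list of BCL2 family members and caspases beyond Bax and Bbc3, 16 genes could be tested. With PB, 1 was called higher in KO, against 1.26% of all genes, and 0 in WT, against 0.654%. The 1 was Bik, a pro-apoptotic BH3 gene, at 0.72 ± 0.17 (log2, SE, adjusted p = 0.0408 by limma), a call lost in 10 of 16 fits without 1 array, all but those without WT DEN mouse 1, 2 or 3, WT DEN + PB mouse 1 or 4 or KO DEN + PB mouse 4. Over both treatments 1 of 16 was called lower in KO, against 6.08% of all genes. It was Bcl2l11, which encodes BIM, at -0.60 ± 0.15 (adjusted p = 0.0115), while its other tested probe gave 0.39 ± 0.31. The call of Bcl2l11 was lost without WT DEN mouse 3, WT DEN + PB mouse 3 or 4, KO DEN mouse 1 or 4 or KO DEN + PB mouse 1, where the log2 change was as small as -0.53. The median of the list was -0.14 for KO against WT under DEN, with 12 of 16 genes below 0 beside 7300 of 13304 of all genes tested, and 0.03 under DEN + PB.

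Among CDK inhibitors and G1 cyclins, 14 could be tested beside Cdkn1a, and over both treatments 2 were called lower in KO, Cdkn2b and Cdkn2c, against 6.08% of all genes. Both encode INK4 inhibitors of CDK4 and CDK6. Under DEN and under DEN + PB, 1 was called lower, Cdkn2b, against 1.74% and 5.85%. Cdkn2b (p15) ran from -1.96 to -1.58 in WT DEN, -1.73 to -1.28 in WT DEN + PB, -2.84 to -2.10 in KO DEN and -3.01 to -2.43 in KO DEN + PB, with all KO mice below all WT mice. KO minus WT was -0.69 ± 0.18 under DEN (adjusted p = 0.0493 by limma), -1.23 ± 0.18 under DEN + PB (adjusted p = 0.000836) and -0.96 ± 0.13 over both treatments (adjusted p = 0.000173). The call under DEN was lost in 13 of 16 such fits (adjusted p up to 0.144), all but those without WT DEN + PB mouse 3, KO DEN mouse 1 or KO DEN + PB mouse 1, and also with the replicate block (adjusted p = 0.0543). Normexp ended the calls of Cdkn2b in each treatment and over both (for DEN + PB at -0.63, adjusted p = 0.459). The probe averaged -2.13, a level at which the normexp offset shrinks changes too. The markers of other cell types called lower under DEN + PB, given beside Apaf1, include 4 of 6 cholangiocyte and 3 of 7 stellate and fibroblast markers, and their part in the result was not tested. Cdkn2c (p18) was called over both treatments at -0.61 ± 0.18 (adjusted p = 0.0257), and lost the call without WT DEN mouse 1 or 3, WT DEN + PB mouse 3 or KO DEN mouse 1 or 3 (adjusted p up to 0.0554).

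By their brightest probes, DNA repair genes and the close relatives of the 10 genes gave no call. Of 23 DNA repair genes tested, 0 were called in any of the 7 comparisons, where 0% to 8.8% of all genes were called. For PB in WT or KO, 0 had an unadjusted p under 0.05, against 8.31% and 13.3% of all genes. For KO against WT, 2 had one under DEN and 4 under DEN + PB, against 18.2% and 23.4%. Their median log2 changes lay between -0.04 and 0.08. Of 8 relatives of Trp53inp1, Sesn2, Btg2, Phlda3 and Ccng1, 0 were called by the brightest probe, against the same shares of all genes. Other probes of Sesn1 did pass, as given above. By brightest probe, the smallest adjusted p among the relatives was that of Btg3, another antiproliferative gene of the BTG family, chosen for naming after its value was seen. Its KO minus WT was -0.89 ± 0.29 under DEN + PB (adjusted p = 0.075 by limma) and -0.59 ± 0.21 over both treatments (adjusted p = 0.0559).

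**Figure D5:**
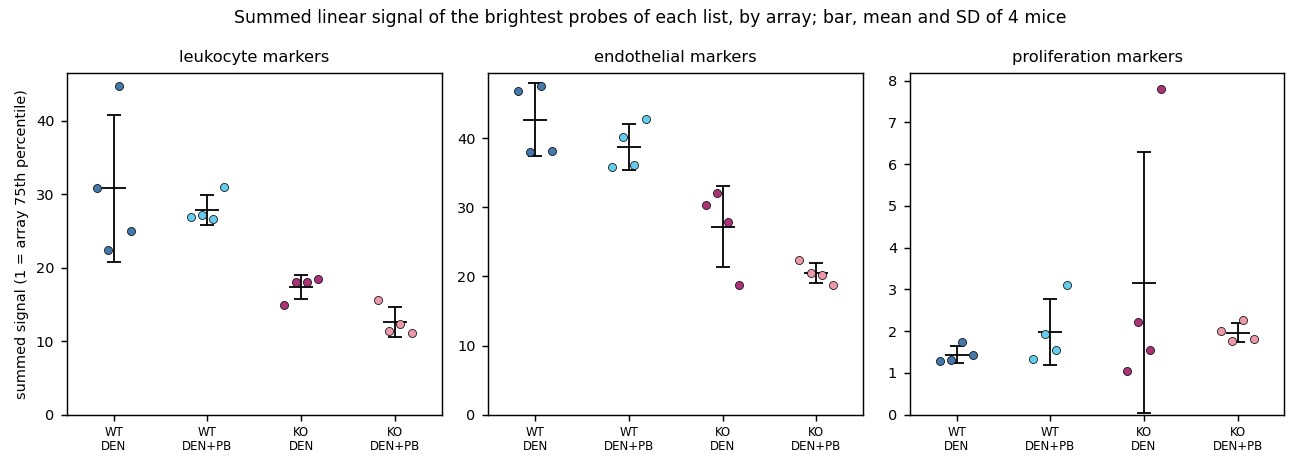
Summed linear signal (y axis, from 0; 1 is the array's 75th percentile) of the tested leukocyte, endothelial and proliferation markers on each array, with the mean and SD of 4 mice per group. Leukocyte and endothelial sums were lower on every KO array than on every WT array, and 1 KO DEN mouse stood at 7.79 for proliferation markers.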

How the data were processed

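Liver RNA of 16 mice was hybridised to 1-colour Agilent arrays, which the authors scanned and read with Feature Extraction 12. What the authors deposited as processed signal is a linear intensity, corrected for background by the scanner software and not scaled between arrays. The authors' own table of intensity values held its means over the spots of a probe, to within 5e-04 percent. Here outlier spots were left out (71 to 122 per array), spots of a probe were averaged, and log2 values were centred on the 75th percentile of each array, which was 137 to 294. Of the spots, 58.3% to 67.7% cleared background and 0 were saturated. The number of arrays limits the precision. Probes well above background on all 4 arrays of a group were tested (24454). RefSeq (GRCm38.p6) named 28223 probes.

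Group means were fitted over 16 arrays with limma 3.58.1 in R 4.3.3, with Benjamini-Hochberg adjustment over all probes tested, and checked on simulated data. Two-sided exact permutation tests of single genes used the 70 assignments of 4 arrays against 4, which allow no p under 0.0286, or 4900 within strata. Bounds for Gadd45b set the bright group's mean against, per array, the higher of its own signal and the dimmest signal of any probe that cleared background. The members and gene lists were chosen with earlier results of these data known. The text names all 10 genes, each gene of the other lists called in a comparison (at most 6, largest first), a fixed set of further genes (Gadd45b, Gadd45a, Gdf15, Mdm4, Ppm1d, Zmat3, Sesn1, Eda2r, Chek1, while Mgmt and Ccnd1 matched no probe), and the 3 nearest patterns of Cdkn1a, Mdm2 and Ccng1. Alternatives were other background corrections (normexp with offset 50, on median spot signals), scalings, filters, blocks by slide or replicate number, the mean of probes, and each array left out. The offset is added to every signal and shrinks log2 changes of dim probes. For such probes, a call lost under normexp cannot be told apart from that shrinkage. The arrays lay on 4 slides scanned on 1 day, and same-numbered mice did not deviate together (r from -0.21 to 0.36). Nothing used here says whether mice shared litters or cages.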

Additional observations from a re-analysis of the deposited data

Results flagged for a closer look

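In 40 checks, 1 for each of the 10 genes in each of the 4 groups, 1 value stood apart from the other 3 mice of its group: Cdkn1a in WT DEN mouse 2, at -0.925 on the log2 scale, with the nearest mouse at -0.12. The gap was 0.932 of the range of the group, over Dixon's critical value at 95% for 4 samples, and chance gives such a gap in about 1 of 20 groups. Without that mouse the PB effect on Cdkn1a in WT was -0.62 (adjusted p = 0.745 by limma) and KO minus WT under DEN was -0.64 (adjusted p = 0.370).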

How the results depend on the processing

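The counts of called genes among the 10 stayed at 0 in the comparisons where they were 0, in all alternatives run. The single call, Btg2 in KO against WT under DEN, fell to a count of 0 under normexp background correction with and without outlying backgrounds, with the unscaled series table, without the filter, with slide as a block, with only the arrays compared and with the mean of probes. Leaving out 1 array gave counts from 0 to 1, and without KO DEN mouse 3 the 1 call was Ccng1 in place of Btg2. Over both treatments the count fell to 0 under both normexp settings and the mean of probes, and lay between 0 and 1 with 1 array left out. The causes were not tested, except that the mean of probes brings in probes without the difference. Of 880 values of the 10 genes under 13 settings, 49 turned sign, as did 63 of 1120 with an array left out, none of them called with both signs. Over all probes, normexp brought the calls from 163 to 21 for PB in WT, from 420 to 64 for PB in KO, from 750 to 21 for genotype under DEN and from 1648 to 50 under DEN + PB, and leaving out 1 array left at least 303 under DEN and 1017 under DEN + PB. The alternatives for called genes outside the 10 were added after the data were seen. Normexp ended the call of Gadd45a in KO against WT under DEN, of Gdf15 for PB in each genotype, and of Apaf1, Gls2 and Cdkn2b under DEN + PB, while Gadd45a in KO against WT over both treatments and Gdf15 for PB over both genotypes were called in every setting. Without scaling, the median of all probes was -0.29 for KO against WT under DEN + PB and -0.30 for PB in KO, so changes there are relative to that shift.

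Same-numbered mice shared only a number, so the replicate block is given here only. It left the counts of the 10 genes at 0 or 1, with Btg2 at an adjusted p of 0.0373 under DEN (limma), and ended the calls of Bik for PB in KO and Cdkn2b under DEN.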
